A study of Mus musculus with 2 samples.

Results

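GABA and glycine are the fast inhibitory transmitters of the brainstem and spinal cord, and 30 genes of their transmission were measured here: 15 subunits of GABA-A and rho (GABA-C) receptors, both GABA-B receptor subunits, 5 glycine receptor subunits, 3 genes of GABA synthesis and vesicle loading, 2 glycine reuptake transporters, 2 chloride carriers and the scaffold Gphn. They were chosen by symbol from a list of receptors, enzymes and carriers, with earlier results of these data known. The list does not hold every gene of the pathway. All 30 were found among the 43346 Ensembl genes of the tables.

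GABA is made from glutamate by the decarboxylases Gad1 and Gad2, and GABA and glycine are loaded into synaptic vesicles by the same transporter. GABA-A, rho and glycine receptors are chloride channels built of 5 subunits, while GABA-B receptors act through G proteins. Whether an open chloride channel inhibits or excites a neuron depends on its internal chloride, which immature neurons hold high through an inward carrier and mature neurons hold low through an outward carrier.

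The tissue was the hindbrain of B6NCrl mouse embryos at embryonic day 11.5, unmanipulated, in 1 group of 2 biological replicates. Pool 1 combined tissue from 109 embryos and pool 2 from 88, male and female together, and each library was made from 10 ng of total RNA longer than 200 nt. Levels are given as TPM, a length-adjusted share of all transcripts in the library, with the pool 1 value before the pool 2 value or as mean ± SD (n = 2). The design holds no second condition, so no test between groups was made. Where the pools differ, there is no further replicate to check the difference against.

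The libraries held 45340440 and 41261544 expected counts (estimated reads), of which 41982915 and 36833678 lay on Ensembl genes. Spike-in RNAs took 16.2% and 22.2% of TPM, and the log2 ratio (pool 2 over pool 1) of the median gene was -0.11. Of markers for the labelled tissue, 11 of 11 Hox genes of groups 1 to 4 and 10 of 10 pan-neuronal genes reached a TPM of 1 in both pools, against 4 of 10 forebrain genes, of which Emx1 was at 0 in a pool. Also at that level were 8 of 8 erythroid, 7 of 7 endothelial, 6 of 6 mesenchymal and 7 of 8 sensory ganglion markers. So were 4 of 6 skeletal muscle and 4 of 5 choroid plexus markers, and 7 of 11 caudal Hox genes (groups 5 to 8). Of all protein-coding genes, 59.4% reached a TPM of 1 in both pools. In such bulk samples, fewer cells of a type and less RNA per cell cannot be told apart.

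Transcripts for making inhibitory transmitter and for the receptor scaffold were present, while most receptor subunits were below a TPM of 1 in at least 1 pool. A gene is called detected where neither pool was under a TPM of 1. Detected were 14 of the 30 genes, against 33.0% of all Ensembl genes and 59.4% of protein-coding genes. Detection covered 6 of 22 receptor subunits and all 8 other members. The median member stood at 1.12 ± 0.17 TPM, against medians of 3.95 and 3.77 for protein-coding genes. The 30 genes together summed to 104 and 117 TPM.

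**Figure D1:**
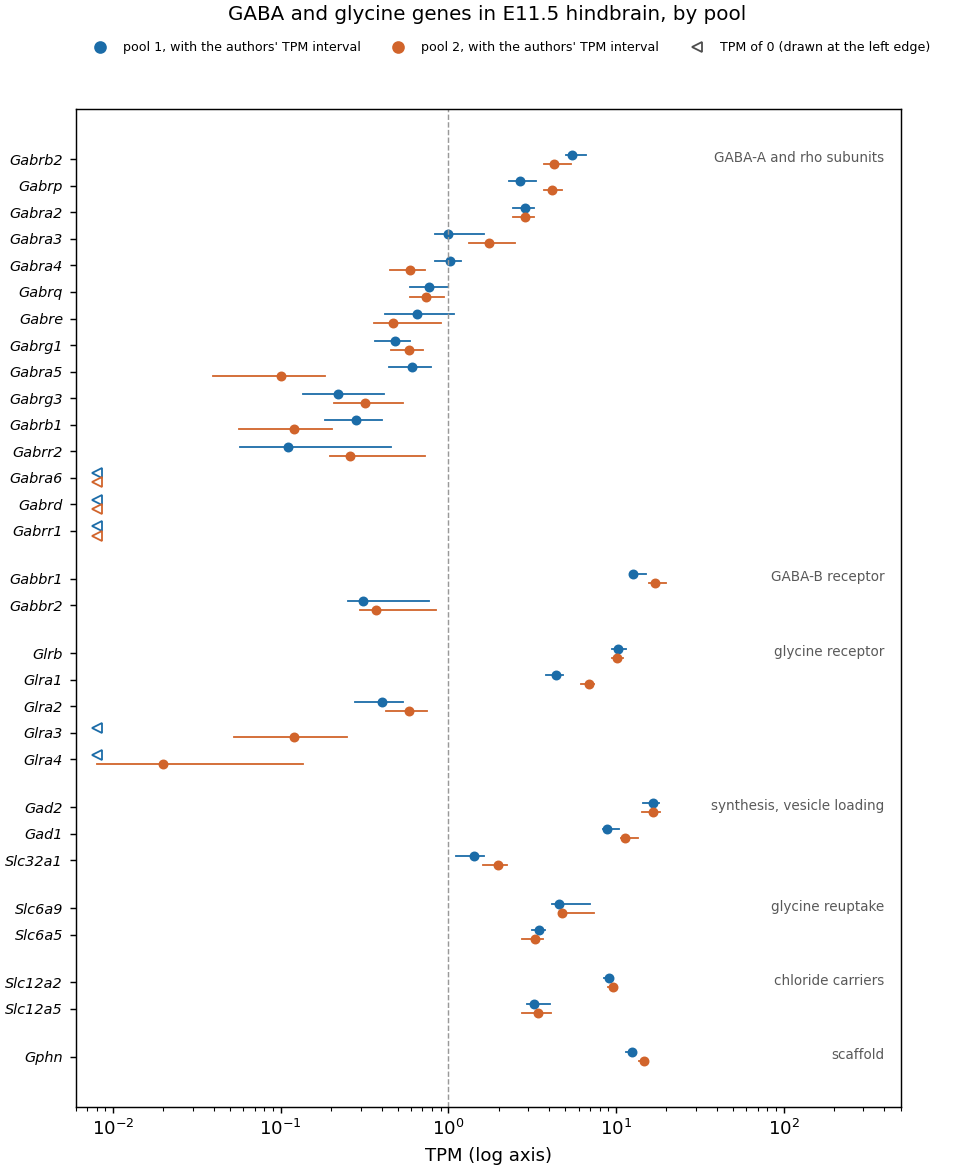
TPM of each of the 30 genes (log axis) in pool 1 (blue) and pool 2 (orange), ordered by level within each role. Lines are the TPM intervals the authors deposited, open triangles are values of 0, and the dashed line marks a TPM of 1. The enzymes, carriers and Gphn lie to the right of the line, and most receptor subunits lie to its left.

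Gad2 had the highest mean TPM of the members, although Gabbr1 was above it in pool 2. It encodes the smaller of the glutamate decarboxylases, known for its link to synaptic vesicles, and stood at 16.59 and 16.61 TPM (1721 and 1830 reads; chromosome 2, 22622205 to 22693874 on GRCm38). Gad1, the larger decarboxylase, stood at 8.90 and 11.41 TPM (683 and 808 reads; chromosome 2, 70553072 to 70602014). Gad2 exceeded Gad1 in both pools, by 1.86-fold and 1.46-fold. Slc32a1, the vesicular transporter shared by GABA and glycine, was the lowest of the 3 at 1.42 and 1.98 TPM (113 and 151 reads).

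Gad1 is known for an embryonic splice form in which an extra exon ends the reading frame early, giving a truncated protein without the catalytic part. In the annotation this exon begins at position 70584420 of chromosome 2, on the plus strand. In a transcript classed as subject to nonsense-mediated decay it has 80 nt (chr2:70584420-70584499), and in a coding transcript it is a longer last exon. Both have a coding sequence of 669 nt, against 1779 nt in the full-length transcript. A further short transcript with the exon had 0 reads. The sequences are shown to make the early stop visible. Both lines begin with the last 30 bases of the preceding exon, and the capitals mark the in-frame stop codon.
Gad1 with the extra exon: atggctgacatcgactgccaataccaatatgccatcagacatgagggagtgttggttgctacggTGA
Gad1 full length: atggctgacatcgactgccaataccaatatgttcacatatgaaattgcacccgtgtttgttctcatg

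Transcripts with the extra exon took 20.8% of Gad1 TPM in pool 1 and 20.1% in pool 2. The full-length coding transcript took 9.99% and 13.0%. The largest share, 64.8% and 56.4%, went to a transcript that the annotation lists as processed, without a coding sequence. Of its 16 exons, 14 are exons of the full-length transcript, and it lacks the extra exon. It starts at its own first exon (70566377 to 70566453), downstream of the first exon of the full-length transcript. Because these transcripts share most exons, the split among them is an estimate. The antisense gene Gad1os overlaps Gad1 and held 12 and 9 reads.

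Gad2 had 2 transcripts in the tables. The coding transcript took 57.9% and 65.2% of TPM but 92.6% and 94.5% of reads, while the non-coding transcript is 721 nt long, so that each of its reads weighs more in TPM. Counted over protein-coding transcripts alone, the log2 ratio of Gad2 to Gad1, computed as log2 of (TPM + 1) in each, was 1.42 ± 0.29, against 0.67 ± 0.23 over all transcripts (n = 2). The protein-coding transcripts of Gad1 include the truncated form with the extra exon (1.35 and 1.62 TPM). It stood above the full-length form (0.89 and 1.49 TPM), so the value is not a ratio of transcripts for whole enzymes.

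**Figure D2:**
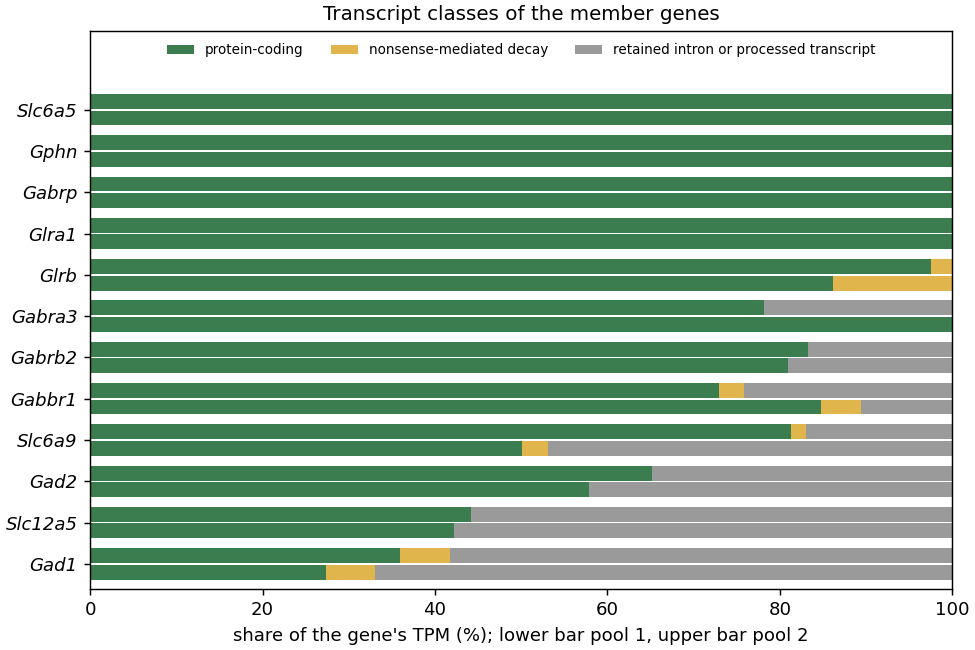
Share of gene TPM (%) on protein-coding, nonsense-mediated decay and non-coding transcripts for the 12 members with more than 1 transcript in the tables and a mean TPM of 1 or more, with pool 1 below pool 2 for each gene. Gad1 and Slc12a5 have under 50% on protein-coding transcripts in both pools, and Glra1, Gabrp, Gphn and Slc6a5 have 100%.

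The 15 GABA-A and rho subunits summed to 16.2 TPM in each pool, and 3 of them were detected. Gabrb2, a beta subunit of the main synaptic receptors, was highest at 5.51 and 4.30 TPM (552 and 370 reads; chromosome 11, 42419757 to 42629028). Gabra2, an alpha subunit common in embryonic and forebrain neurons, stood at 2.88 and 2.86 TPM (194 and 185 reads; chromosome 5, 70957597 to 71095849), level between the pools. Gabrp, the pi subunit, known chiefly from the uterus and other epithelia, stood at 2.69 and 4.16 TPM (236 and 374 reads; chromosome 11, 33550781 to 33578959). No other listed subunit of this family reached a TPM of 1 in both pools.

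Gabrb2 RNA was mostly the form without an additional coding exon. A longer coding transcript carries an exon of 114 nt (chr11:42602115-42602228, plus strand) that the leading transcript lacks. It took 0% and 15.8% of Gabrb2 TPM, on 0 and 27.6 reads, against 80.9% and 67.5% for the leading transcript. The extra exon is printed in capitals with 30 bases of the neighbouring exons on either side, since it is what separates these coding forms.
Gabrb2 with the extra exon: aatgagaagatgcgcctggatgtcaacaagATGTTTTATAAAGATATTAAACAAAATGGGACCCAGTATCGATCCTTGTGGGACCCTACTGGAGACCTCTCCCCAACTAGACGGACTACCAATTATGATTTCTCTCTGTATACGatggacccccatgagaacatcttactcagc

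Subunits near the threshold were Gabra3 and Gabra4. Gabra3, an alpha subunit known from brainstem neurons, stood at 0.99 and 1.74 TPM (91 and 125 reads). Gabra4, an alpha subunit found mostly outside synapses, stood at 1.02 and 0.59 TPM (121 and 67 reads). Each of the 2 was above 1 in a single pool, and not in the same pool.

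Further subunits were below a TPM of 1 in both pools. Gabrq (theta) stood at 0.77 and 0.74 TPM, Gabre (epsilon) at 0.65 and 0.47, and Gabrg1 (gamma 1) at 0.48 and 0.58. Gabra5, an alpha subunit best known from the hippocampus, stood at 0.61 and 0.10 TPM on 45.87 and 7 reads. Gabrb1 (0.28 and 0.12 TPM, 25 and 10 reads) and Gabrg3 (0.22 and 0.32 TPM, 18 and 27 reads) were rarer. Gabra5 and Gabrb1 were higher in pool 1 on few reads, and both overlap genes on the opposite strand, whose reads may not be separable since no source used here gives the strand settings.

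Of the remaining subunits, 3 had no read. Gabra6, the alpha subunit of mature cerebellar granule cells, Gabrd, its extrasynaptic delta partner, and Gabrr1, a rho subunit of the retina, had 0 reads in both pools. A count of 0 allows up to 3 reads, for counting error only. At the mean length of the gene's transcripts, 3 reads are a TPM of 0.0497 and 0.0517 for Gabra6, 0.0643 and 0.0670 for Gabrd, and 0.0466 and 0.0485 for Gabrr1, and more on a shorter transcript. The upper bounds of the authors' TPM intervals were 0.111 and 0.114 for Gabra6, 0.340 and 0.358 for Gabrd, and 0.0456 and 0.0479 for Gabrr1. The other rho gene, Gabrr2, had 2 and 11 reads (0.11 and 0.26 TPM).

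Several of these genes lie in clusters inherited from an ancestral receptor gene group, and members of a cluster stood at unlike levels. In the chromosome 5 cluster (70751047 to 72149037), Gabra2 was at 2.87 ± 0.01 TPM, while its neighbours Gabra4 (0.81 ± 0.30), Gabrg1 (0.53 ± 0.07) and Gabrb1 (0.20 ± 0.11) did not reach 1 on average. On chromosome 11, Gabrb2 was at 4.90 ± 0.86 and Gabra6 at 0. On the X chromosome, Gabra3 (1.37 ± 0.53), Gabrq (0.76 ± 0.02) and Gabre (0.56 ± 0.13) lay closer together. The rho genes share a stretch of chromosome 4 (33062999 to 33163588) and had at most 11 reads each in a pool.

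GABA-B receptors need both of their subunits to reach the cell surface and signal, and their transcripts were far from equal. Gabbr1, which binds GABA, stood at 12.68 and 17.12 TPM (1330 and 1537 reads; chromosome 17, 37045966 to 37075067). Gabbr2, which couples to the G protein, stood at 0.31 and 0.37 TPM (52 and 59 reads; chromosome 4, 46662305 to 46991873). Gabbr1 exceeded Gabbr2 by 40.9-fold and 46.3-fold in TPM.

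Gabbr1 makes a long and a short form from separate starts. The long coding transcript took 37.3% and 36.3% of TPM, and the short form took 29.8% and 24.3%, so the long form led in both pools. The short form begins inside the gene with 145 coding bases that the long form lacks (chr17:37050854-37050998, plus strand). They are printed in capitals because they define the short form, followed by the first 30 shared bases.
Gabbr1 short form: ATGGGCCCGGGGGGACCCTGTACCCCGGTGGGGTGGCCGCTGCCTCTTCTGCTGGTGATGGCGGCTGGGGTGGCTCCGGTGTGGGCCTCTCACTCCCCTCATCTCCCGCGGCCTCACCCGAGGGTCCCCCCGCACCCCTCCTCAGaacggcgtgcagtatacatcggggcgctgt

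Among glycine receptor subunits, the beta subunit and alpha 1 were detected. Glrb, the beta subunit that ties the receptor to its scaffold, stood at 10.31 and 10.09 TPM (777 and 812 reads; chromosome 3, 80843599 to 80913660). Glra1, the alpha subunit of most adult brainstem and spinal receptors, stood at 4.37 and 6.88 TPM (293 and 445 reads; chromosome 11, 55514238 to 55608198). Glra2, the alpha subunit known as the main form of embryonic neurons, stood at 0.40 and 0.58 TPM (36 and 50 reads; X chromosome, 165129017 to 165327393). Glra1 was thus 10.9-fold and 11.9-fold above Glra2.

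Glra3 (0 and 6 reads) and Glra4 (0 and 1 read) were barely read. In pool 1, where both had 0, 3 reads at the mean transcript length are a TPM of 0.0388 for Glra3 and 0.0642 for Glra4, and the upper bounds of the authors' intervals were 0.0695 and 0.101. A pseudogene on the opposite strand, Gm12237, lies within Glra1 and held 13 and 10 reads, far fewer than Glra1 itself. Glra4 overlaps the non-coding BC065397, which held 158.91 and 204.98 reads.

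All Glra1 TPM lay on protein-coding transcripts. The leading form took 97.0% and 99.3%, and a second form, which carries 24 further nt at the start of its last exon (chr11:55515104-55515127, minus strand), took 2.97% and 0.73%. The insert is shown in capitals with 30 bases on either side, beside the same stretch of the dominant form.
Glra1 with the insert: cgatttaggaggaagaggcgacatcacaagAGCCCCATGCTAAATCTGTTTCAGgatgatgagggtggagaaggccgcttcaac
Glra1 leading form: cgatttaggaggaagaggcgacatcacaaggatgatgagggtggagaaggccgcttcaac

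Gphn encodes gephyrin, the scaffold under glycine and many GABA-A receptors, which also has a general role in making the molybdenum cofactor. It stood at 12.47 and 14.71 TPM (1172 and 1329 reads; chromosome 12, 78226379 to 78684772), above its partner Glrb and every GABA-A subunit of the list. A coding transcript of 23 exons took 74.8% and 73.7% of its TPM and a second coding transcript the rest.

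Both glycine reuptake transporters were detected. Slc6a9 (GlyT1), known from glia and progenitors, stood at 4.60 and 4.77 TPM (256 and 346 reads; chromosome 4, 117834506 to 117875198). Slc6a5 (GlyT2), the transporter that marks glycinergic neurons, stood at 3.50 and 3.27 TPM (689 and 523 reads; chromosome 7, 49910146 to 49963856). Over all transcripts Slc6a9 was above Slc6a5 by 1.31-fold and 1.46-fold. Over protein-coding transcripts alone the order in pool 1 turned, with Slc6a9 at 2.30 and Slc6a5 at 3.50 TPM, while in pool 2 they stood at 3.88 and 3.26 TPM, so these data give the transporters no fixed order.

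Reads of Slc6a9 differed more than its TPM, which depends on the split among its 12 transcripts. It had 256 reads in pool 1 and 346 in pool 2, a 1.54-fold higher share of the reads in pool 2. In pool 1, 19.27 reads were placed on a non-coding transcript of 488 nt, which took 36.6% of the gene's TPM, and in pool 2 it had 0 reads. B4galt2 and Ccdc24 overlap Slc6a9 on the opposite strand.

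Chloride carriers of both directions were detected, with the inward carrier higher. Slc12a2 (NKCC1), which brings chloride into the cell, stood at 9.11 and 9.60 TPM (1720 and 1742 reads). Slc12a5 (KCC2), the neuronal carrier that takes chloride out, stood at 3.25 and 3.45 TPM (392 and 374 reads; chromosome 2, 164960802 to 164999731). The ratio of Slc12a2 to Slc12a5 was 2.80 and 2.78, nearly the same in both pools. As a bulk value over all cells of the tissue, it does not give the ratio within neurons.

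The coding transcript of Slc12a5 took 42.2% and 44.2% of its TPM, but 60.7% and 68.2% of its reads. A transcript listed as a retained intron took 54.8% and 40.1% of TPM. With protein-coding transcripts alone, the log2 ratio of Slc12a2 to Slc12a5 on the (TPM + 1) scale was 2.08 ± 0.01, against 1.25 ± 0.0014 over all transcripts (n = 2).

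Of 68 other genes listed for the pathway, 59 were detected, against 59.4% of protein-coding genes. In GABA and taurine uptake and breakdown, 5 of 7 genes were detected: Aldh9a1, an aldehyde dehydrogenase that can make GABA from putrescine (25.8 ± 1.33 TPM), the taurine transporter Slc6a6 (23.2 ± 1.15) and the GABA transaminase Abat (21.8 ± 4.32) led, and the betaine and GABA transporter Slc6a12 was lowest (0.22 and 0). All 19 matched genes of synapse scaffolds and receptor trafficking were detected. They ran from Gabarap (459 ± 16.2), Gabarapl2 (261 and 239 TPM), both also autophagy genes, and the molybdenum cofactor gene Mocs2 (58.8 ± 2.41) down to the synaptic adhesion gene Slitrk3 (1.36 ± 0.17).

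GABA-B auxiliary subunits were present beside the low Gabbr2: Kctd12 stood at 10.6 ± 0.76 TPM, Kctd12b at 3.13 ± 0.59 and Kctd8 at 1.67 ± 0.19, with Kctd16 below the threshold (1.17 and 0.62). Of other chloride carriers and their kinases, 14 of 17 were detected. The kinases Wnk1 (48.9 ± 7.83) and Stk39 (40.0 ± 5.24), which regulate both carrier families, and the chloride-proton exchanger Clcn3 (26.2 ± 2.20) were highest, and the kidney carrier Slc12a1 was lowest (0.01 and 0). All 6 genes of glycine synthesis and cleavage were detected, led by Dld (130 ± 12.8), Gcsh (107.9 ± 7.23) and Shmt2 (44.0 and 37.5 TPM), with the glycine decarboxylase Gldc lowest (14.5 ± 2.68).

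Of 15 listed transcription factors of inhibitory neuron fate, 12 were detected, against 59.4% of protein-coding genes. The cells that hold their transcripts cannot be told from bulk tissue. Lhx1 (39.9 ± 0.45 TPM) and Lhx5 (28.7 ± 1.03), LIM homeobox factors, were among the highest, and Helt was lowest (0.36 ± 0.13). Lhx1 and Lhx5 stood above Gad2 and all receptor subunits in the list. Of 25 glutamate receptor genes, set beside the members as the excitatory counterpart, 14 were detected at list medians of 1.45 and 1.92 TPM, against 6 of the 22 inhibitory receptor subunits at medians of 0.55 and 0.53. The difference between these lists was not tested.

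**Figure D3:**
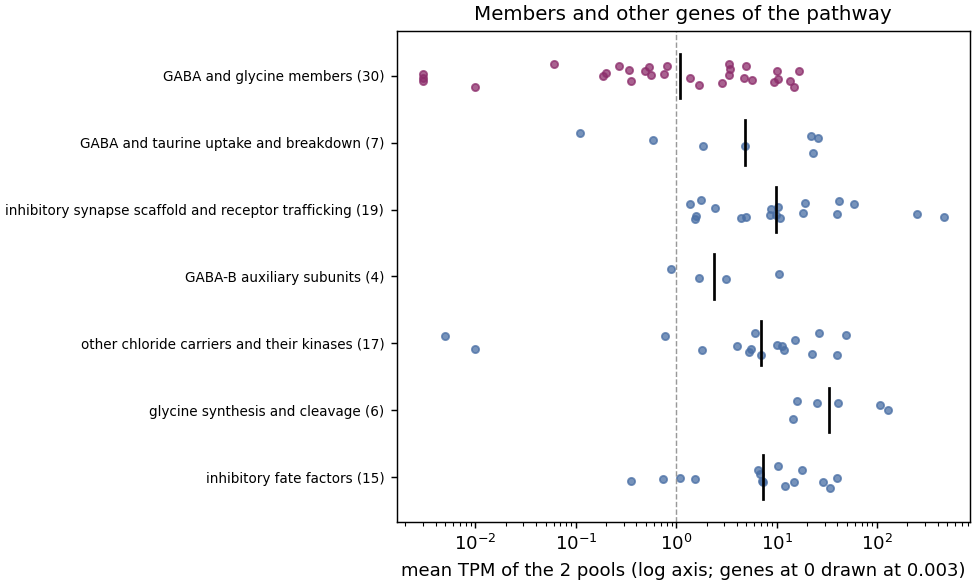
Mean TPM of the 2 pools (log axis) for the 30 members (purple) and 6 lists of other pathway genes (blue), 1 point per gene, with a black bar at the median of each list's means and genes at 0 drawn at the left edge and a dashed line at a TPM of 1. The number of genes is in brackets. The members' bar lies next to the dashed line.

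Between the pools, 2 of the 15 members whose mean TPM reached 1 were over 1.5-fold apart relative to the median gene, both higher in pool 2, where 5.98% of all such genes were that far apart, 4.35% higher and 1.63% lower in pool 2. Of protein-coding genes alone 3.15% were that far apart, 2.07% higher and 1.07% lower. Glra1 was 1.57-fold higher in TPM in pool 2, a relative log2 ratio of 0.66. That is past the distance of 0.60 that holds 95% of genes with 100 to 1000 reads. Gabrp had a relative log2 ratio of 0.59, inside that distance, and was not past 1.5-fold when FPKM replaced TPM. With TMM and DESeq2 scaling of reads its ratio was 0.75 and 0.85, above those of Glra1 (0.71 and 0.79).

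The rest of the members lay nearer to the median gene. Gabra3 (0.57), Gabbr1 (0.51), Gad1 (0.43), Slc32a1 (0.41) and Gphn (0.33) followed Glra1 and Gabrp in relative log2 ratio. Gabrb2 (-0.19) was the only member of the 15 below the median gene, and 14 stood above it, where 50.0% of all genes and 47.5% of protein-coding genes do. With TMM or DESeq2 scaling of reads 13 of the 15 were above. The median of the 15 was 0.18, where that of all genes is 0 by construction. It was 0.36 with TMM and 0.37 with DESeq2 scaling of reads. Over all 30 members it was 0.05 with no filter on level, for members or for the median gene.

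Other lists differed in summed TPM between the pools too. These sums are not relative to the median gene, and spike-ins took a larger share of TPM in pool 2. Caudal Hox genes of groups 5 to 8 summed to 135 and 70.9 TPM (0 of 9 above the median gene, Hoxc8 at 0 in a pool), skeletal muscle genes to 77.4 and 37.0 (0 of 5), sensory ganglion and crest genes to 172 and 121 (0 of 7) and choroid plexus genes to 254 and 184 (1 of 4). Pan-neuronal genes summed to 2022 and 1812 TPM (6 of 10 above the median gene), and motor neuron genes to 99.2 and 77.2 (2 of 4). Their median relative log2 ratios were 0.06 and -0.20, so pan-neuronal genes did not fall relative to the median gene. Glutamate receptor genes were above it in 13 of 15 cases, with a median of 0.30. Whether the pools differ in tissue content, and whether that bears on the ratios of Glra1, Gabrp and Gabra5, was not tested.

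**Figure D4:**
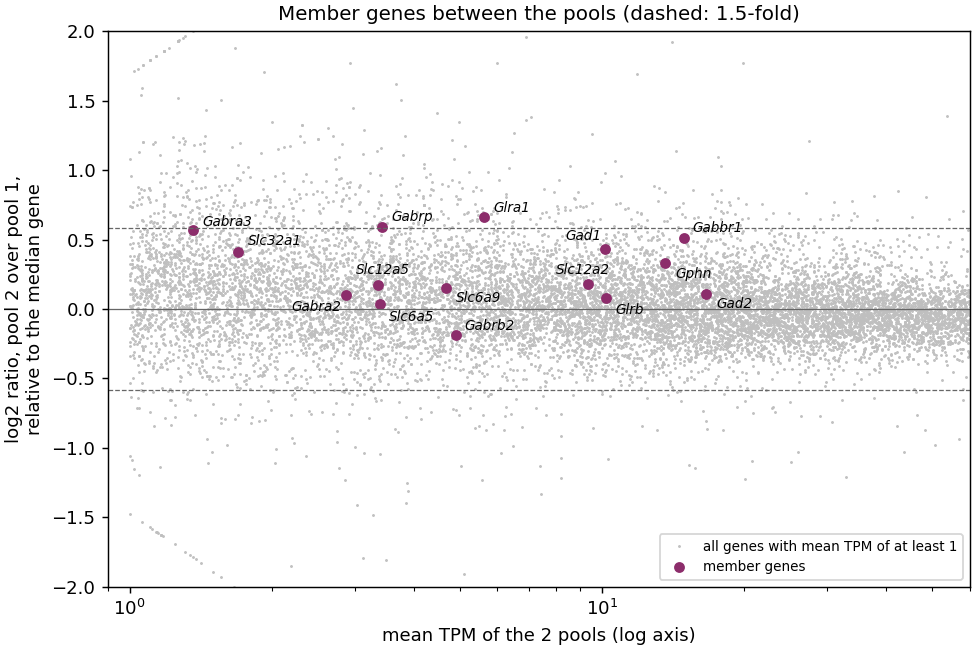
Log2 ratio of pool 2 over pool 1, relative to the median gene, against mean TPM (log axis) for the 15 members whose mean TPM reached 1 (purple) over all genes past that level (grey; points outside the axes are not drawn). Dashed lines mark 1.5-fold. Glra1 and Gabrp lie above the upper line, and Gabrb2 is the only member below 0.

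Promoter windows from RefSeq (GRCm38.p6, 250 bases before to 50 after the most upstream start) were matched for 27 members. Gabrd, Glra1 and Slc12a2 had none. Members differed widely in CpG dinucleotides (the letters CG, which read the same on both strands), from 0 in Gabra3 to 46 in Gabbr2. At least 10 were present in 11 of 12 detected members and in 7 of 15 others. Over protein-coding genes, 84.8% of detected and 19.3% of other genes had as many.

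The contrast is shown by the window of Gphn, with 42 CpG, and that of Gabra6, a gene with no read, with 2. Capitals mark CpG.
Gphn (chr12:78226405-78226704, plus strand): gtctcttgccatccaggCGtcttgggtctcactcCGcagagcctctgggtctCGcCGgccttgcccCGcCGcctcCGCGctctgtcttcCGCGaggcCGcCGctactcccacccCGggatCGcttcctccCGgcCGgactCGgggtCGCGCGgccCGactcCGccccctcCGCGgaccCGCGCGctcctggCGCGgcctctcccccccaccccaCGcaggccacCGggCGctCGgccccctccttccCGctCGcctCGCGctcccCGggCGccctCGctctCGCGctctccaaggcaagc
Gabra6 (chr11:42321023-42321322, minus strand): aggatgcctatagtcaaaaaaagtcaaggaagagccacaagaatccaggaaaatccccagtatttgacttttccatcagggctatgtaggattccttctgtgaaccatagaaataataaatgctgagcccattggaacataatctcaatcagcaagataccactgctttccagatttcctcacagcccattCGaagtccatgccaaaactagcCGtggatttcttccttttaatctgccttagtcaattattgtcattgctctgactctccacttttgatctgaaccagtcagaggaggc

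Some members had many CpG at a low level, or few and were detected. Gabbr2 had 46 CpG at 0.34 ± 0.04 TPM and Gabrb1 had 25 at 0.20 ± 0.11. Gabrp was detected with 4. The motif TATAAA was found on either strand in 4 of the 27 windows (Gad1, Gabrb2, Gabra3 and Glra2), or 14.8%, against 12.5% of all matched genes.

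**Figure D5:**
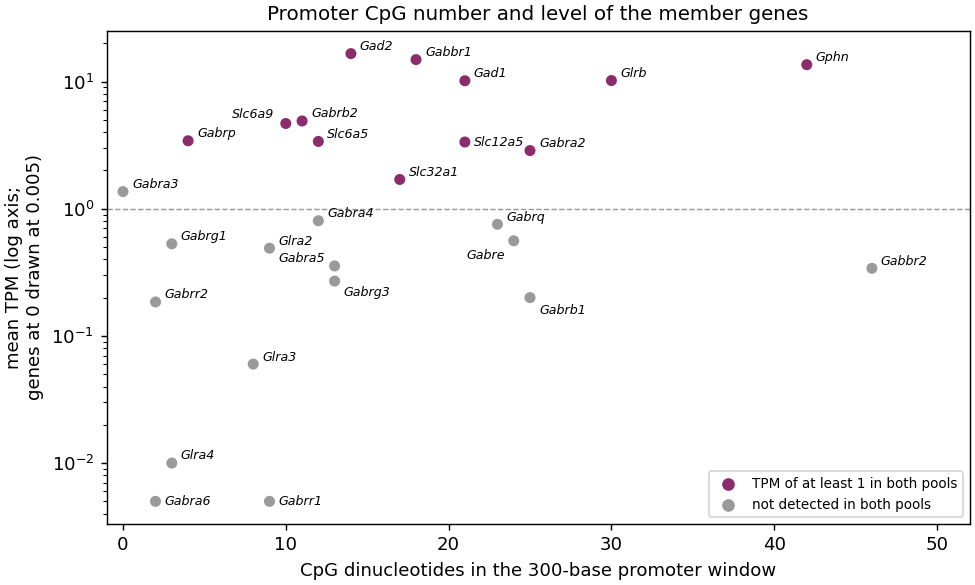
Mean TPM of the 2 pools (log axis, genes at 0 drawn at 0.005) against the number of CpG dinucleotides in the 300-base promoter window for 27 members, purple where detected. The dashed line is a TPM of 1. Detected members run from 4 to 42 CpG, and Gabbr2 has the most CpG at a low level.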

How the data were processed

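Per the labels' protocols, RNA was extracted with mirVana and spike-ins were used. The labels also link a general protocol whose name is Smart-Seq. The readme beside the tables gives mm10 and GENCODE M4. For the aligner, quantifier and strand settings: not given in the sources used here. For each library the authors deposited expected counts (estimated counts), TPM (relative to all entries, spike-ins included), FPKM and bounds of a TPM interval of unstated level, per the file headers. The transcript tables also hold the authors' isoform percent. Here transcript shares were recomputed from TPM.

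Symbols, coordinates and transcript classes came from GENCODE vM21 (GRCm38, the same build as mm10), matched by Ensembl identifier for 42462 of 43346 genes. Transcript classes are those of vM21. Gabra2-201, the only Gabra2 transcript in the tables, is classed there as nonsense-mediated decay with another length, so its class was not used. Exon sequences were printed only from transcripts of equal length in both releases.

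Each pool ratio was the difference of log2(TPM + 1), pool 2 minus pool 1, less that of the median gene among those whose mean TPM reached 1. Members and lists were chosen with earlier results of these data known. All 30 members are named. Of 69 pathway genes listed, 68 were matched (Insyn2a was not). Of each pathway list the 3 highest genes and the lowest are named, together with any past 1.5-fold between pools (Wnk3, 8.73 and 13.97 TPM). A gene that this rule names is not reported here. The labels call the pools biological replicates. Scaling used edgeR 4.0.16 (TMM) and DESeq2 1.42.0 (size factors) under R 4.3.3, only as alternatives, after rounding the expected counts to integers. Tables were handled in pandas 2.3.3 and NumPy 2.4.6 (Python 3.11.15) and drawn in Matplotlib 3.10.9. The pool ratio was tested on simulated data. Intervals and limits for counts of 0 cover counting error only.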

Additional observations from a re-analysis of the deposited data

How the results depend on the processing

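The 2 pools limit every spread given to n = 2, and members not detected rest on at most 125 reads per pool. Detection covered 14 members, 6 at a TPM of at least 5 and 23 at 10 reads. It was 15 with either pool left out. Leaving out a pool gave 59 to 61 detected pathway genes. The median member level was 0.75 as FPKM, 1.61 over protein-coding nuclear genes, 1.40 without spike-ins and 3.69 as a mean, and 1.00 to 1.24 in single pools. Members over 1.5-fold apart numbered 1 with FPKM, 5 with DESeq2 size factors, 0 with no filter and 1 at a mean TPM of at least 5. Glra1 was past 1.5-fold in all of these except with no filter. With no filter the median gene was that of all 43346 genes, and its log2 ratio was 0, against -0.11. Log2 ratios between genes were taken after adding 1 to each level, unless another pseudocount is named. Those with Gabbr2 or Glra2, both below a TPM of 1, are therefore smaller in size than the plain folds given above. The log2 ratio of Slc12a2 to Slc12a5 was 1.16 with FPKM, 1.45 with a pseudocount of 0.1 and 2.08 with protein-coding transcripts. That of Gad2 to Gad1 was 1.42 with protein-coding transcripts, which for Gad1 include the truncated form. That of Glra2 to Glra1 was -1.82 with FPKM and -3.26 with a pseudocount of 0.1. Single pools gave 1.25 and 1.25, 0.50 to 0.83 and -2.32 to -1.94 for these ratios. With protein-coding transcripts, chosen after seeing the data, the log2 ratio of Slc6a9 to Slc6a5 turned from 0.37 to -0.13 and that of Gabbr1 to Gabbr2 went from 3.55 to 3.23, and single pools gave 0.32 to 0.43 and 3.38 to 3.73. The leading transcript's median share, 76.4% of TPM, was 90.4% of expected counts, and 71.8 to 80.9% in single pools. The cause of these shifts was not tested. No paired analysis was possible because there is only 1 group.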
